A study of Rattus norvegicus with 24 samples.

Results

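Cxcl1, Cxcl2, Cxcl3, Cxcr1 and Cxcr2 are 3 chemokines that attract neutrophils and the 2 receptors that read them, and their RNA was measured in the lungs of rats that had breathed cigarette smoke, mineral dust, both or neither. The genes were found by symbol in the array annotation, each by its brightest probe set with a single symbol over the 24 arrays, and all 5 of 5 were present among 14217 genes. Male Sprague-Dawley rats were listed as 17 weeks old in the labels and as 10 to 15 weeks old in the series text. The series text gives 102 rats in 6 groups of 17, and 4 rats of each group had an array here. Each rat went through a nose-only session of smoke or air (3 hours a day, 5 days a week, for 5 weeks in the protocol and 6 in the series text) and, over its last 2 weeks, through whole-body exposure to dust or air as well (18 hours a day in the protocol and 18 to 19 in the series text, 7 days a week). In 2 groups rats received smoke at 0.48 mg of total particulate matter per litre with dust at 1 mg per cubic metre, which was manufactured silica in smoke plus silica rats and Iraqi sand in smoke plus sand rats. The smoke alone, silica alone and sand alone groups breathed air on the other route, and the air rats had air on both. RNA came from the right caudal lobe, so a value mixes all cells of that lobe, and fewer cells of a type cannot be told apart from less RNA per cell.

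Chemokines of the CXC family with a Glu-Leu-Arg motif before the first cysteines draw neutrophils out of blood into inflamed tissue. In rats these ligands include Cxcl1 (also called CINC-1), Cxcl2 and Cxcl3, made by epithelium and macrophages after NF-κB and interleukin-1 signalling. They act through Cxcr2, the main receptor on rodent neutrophils, and to an extent that depends on the ligand through Cxcr1, and both receptors are coupled to inhibitory G proteins. Rats have no counterpart of human CXCL8, and Cxcl1 to Cxcl3 are its functional stand-ins.

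All values below are log2 array values that had been normalized by RMA, a method that corrects background, equalizes the arrays' distributions and combines the probes of a probe set. Differences are on the log2 scale, where 1 is a doubling, and "rose" and "fell" mark a Benjamini-Hochberg adjusted p under 0.05 over all 14217 genes in limma. Nothing in the labels names the litter or cage of a rat, so the p-values measure the spread between these rats. Arrays of 21 rats correlated on average at 0.985 to 0.990 with the others, and those of sand rat 302, air rat 104 and smoke plus silica rat 604 at 0.944 to 0.982. Rats 104 and 302 also had the highest cardiac muscle marker levels, 9.91 and 9.48 as a list mean, against group medians of 5.64 to 6.64. Results for Cxcl1, Cxcl2, Cxcl3, Cxcr1 and Cxcr2 that change without these 3 rats are given with that change. No such check is given for the other genes and gene lists, so their calls may depend on these rats.

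Cxcl1 was the member that moved furthest. It rose to 4.33-fold of the air level with smoke alone (log2 difference 2.11 ± 0.26 SE, adjusted p = 2.63e-04) and to 3.33-fold with silica alone (1.74 ± 0.26, adjusted p = 0.0067). It rose to 4.47-fold with smoke plus silica (2.16 ± 0.26, adjusted p = 6.12e-05) and to 3.87-fold with smoke plus sand (1.95 ± 0.26, adjusted p = 0.00122). Sand alone gave a difference of 0.64 ± 0.26 that did not pass (adjusted p = 0.429). These comparisons share the 4 air rats. On the 19 arrays with a recorded RNA integrity number the silica call was lost (1.73, adjusted p = 0.135, and 1.82, adjusted p = 0.106, with that number as a covariate), and over all 11 other settings its adjusted p ran from 0.0023 to 0.135. The smoke plus sand call was also lost on these 19 arrays without the covariate (1.76, adjusted p = 0.0539).

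The Cxcl1 values were 10.36, 11.09, 10.75 and 10.30 in smoke plus silica rats, 10.90, 10.46, 9.55 and 10.75 in smoke plus sand rats, and 10.73, 10.70, 10.35 and 10.53 in smoke rats. They were 10.79, 10.04, 9.98 and 9.99 in silica rats, 8.83, 8.61, 9.68 and 9.31 in sand rats, and 8.54, 8.66, 8.21 and 8.45 in air rats. Every rat that had breathed smoke or silica lay above every air rat, whereas sand rat 302, at 8.61, lay below the highest air rat. Group means ran 10.63 ± 0.37 for smoke plus silica, 10.58 ± 0.17 for smoke, 10.42 ± 0.60 for smoke plus sand, 10.20 ± 0.39 for silica, 9.11 ± 0.48 for sand and 8.46 ± 0.19 for air (SD, n = 4 each). The first 3 in that order differed by less than the spread within groups. Silica rats lay wholly above sand rats, a pair that was not tested.

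Cxcl2, which acts on the same receptor, moved less. It rose with smoke plus sand to 2.73-fold of the air level (1.45 ± 0.26, adjusted p = 0.00708) and with smoke plus silica to 1.99-fold (1.00 ± 0.26, adjusted p = 0.034). With smoke alone the difference was 1.04 ± 0.26 and did not pass (adjusted p = 0.063), and it was 0.73 ± 0.26 with silica alone and 0.58 ± 0.26 with sand alone (adjusted p = 0.687 and 0.459). Without rats 302, 104 and 604 the smoke plus silica call was lost (0.86, adjusted p = 0.127), and the call with smoke plus sand was kept (1.40, adjusted p = 0.0148). On the 19 arrays both calls were lost, with and without the covariate (adjusted p = 0.0812 and 0.18 for smoke plus sand, and 0.103 and 0.169 for smoke plus silica). The smoke plus silica call was also lost without any one of rats 102, 103, 104, 602, 603 and 604 (adjusted p up to 0.126), and over 10 other settings its adjusted p ran from 0.00548 to 0.169. The difference with smoke alone passed without any one of rats 205, 302, 305 and 405 (adjusted p down to 0.0202).

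Cxcl2 stood at 6.84, 7.24, 7.26 and 6.63 in smoke plus silica rats, 7.71, 7.61, 6.70 and 7.76 in smoke plus sand rats, and 7.42, 7.40, 6.71 and 6.63 in smoke rats. It stood at 6.92, 6.78, 6.73 and 6.47 in silica rats, 6.14, 6.33, 6.40 and 7.43 in sand rats, and 5.97, 5.97, 5.86 and 6.19 in air rats. The smoke group split into a high and a low pair, smoke plus sand rat 405 was below its 3 companions, and sand rat 305 was a full log2 unit above its own. Of all exposed rats only sand rat 301, at 6.14, lay below the highest air rat. Mean levels were 7.45 ± 0.50 in smoke plus sand, 7.04 ± 0.43 in smoke, 6.99 ± 0.31 in smoke plus silica, 6.73 ± 0.19 in silica, 6.57 ± 0.58 in sand and 6.00 ± 0.14 in air rats (SD, n = 4 each), and each neighbouring pair of exposed groups in that order overlapped.

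**Figure D1:**
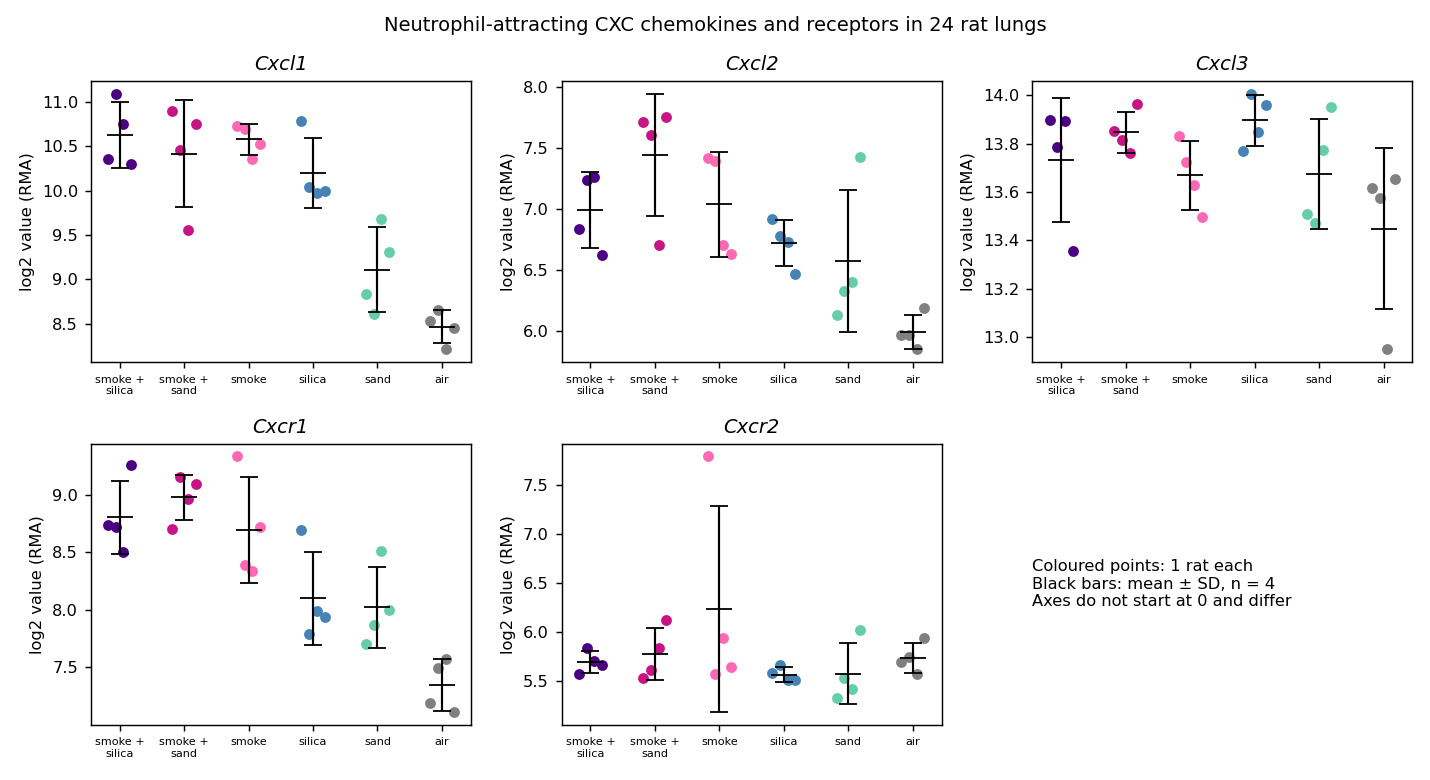
Log2 RMA value of the 5 genes (vertical axes, which differ and do not start at 0) in the 6 groups (horizontal axes), with a point for each rat and black bars for the mean ± SD (n = 4). Cxcl1 sits between 9.55 and 11.09 across the smoke groups and between 8.21 and 8.66 in air, Cxcr1 is likewise highest in the smoke groups and lowest in air, and Cxcr2 has a single high point of 7.79 in the smoke group.

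Cxcl1 and Cxcl2, the 2 ligands whose brightest probe set rose, are neighbours on rat chromosome 14. Their start regions are shown because both rose with the combined exposures. The sequences are from RefSeq, build GRCr8, and hold the 250 bases before the annotated start, read along each gene; Cxcl1 lies at chr14:17479322-17479571 and Cxcl2 at chr14:17467256-17467505, both on the minus strand. Capitals mark matches to GGNNTTTCC on either strand, where N is any base. This pattern resembles the binding motif of NF-κB without being the same, and it was chosen after these sequences had been read.

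Cxcl1: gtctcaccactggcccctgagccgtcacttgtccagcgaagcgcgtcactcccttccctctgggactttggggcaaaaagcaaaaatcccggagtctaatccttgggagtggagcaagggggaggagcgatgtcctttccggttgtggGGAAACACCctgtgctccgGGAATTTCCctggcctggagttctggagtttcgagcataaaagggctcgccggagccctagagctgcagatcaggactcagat
Cxcl2: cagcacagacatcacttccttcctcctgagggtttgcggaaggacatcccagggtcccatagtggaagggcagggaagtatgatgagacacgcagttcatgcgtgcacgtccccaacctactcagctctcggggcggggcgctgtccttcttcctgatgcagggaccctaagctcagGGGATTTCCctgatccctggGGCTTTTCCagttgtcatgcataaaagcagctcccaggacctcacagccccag

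Cxcl1 held 2 matches, GGAAACACC on the opposite strand starting 102 bases before the gene and GGAATTTCC starting 83 bases before it, and no letter was shared between them. Cxcl2 also held 2, GGGATTTCC starting 73 bases and GGCTTTTCC starting 53 bases before the gene, both on its own strand. At least 1 match was found in 5.19% of 33469 promoters of the same length and at least 2 in 0.233%. Because the pattern was chosen from the Cxcl1 and Cxcl2 sequences, these shares do not measure how unusual their matches are. Cxcr1 and Cxcr2, neighbours on chromosome 9, held 0 matches in these windows. Cxcl3 was not matched in the promoter table. A match is a run of letters and shows nothing about binding in these lungs.

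Cxcl3 gave different answers by probe set. The brightest probe set, 1388033_at, did not pass in any of the 14 comparisons. Its values were 13.90, 13.79, 13.89 and 13.36 in smoke plus silica rats, 13.85, 13.81, 13.76 and 13.96 in smoke plus sand rats, and 13.83, 13.72, 13.63 and 13.50 in smoke rats. They were 13.77, 14.01, 13.85 and 13.96 in silica rats, 13.51, 13.47, 13.77 and 13.95 in sand rats, and 13.62, 13.57, 12.95 and 13.65 in air rats. All groups overlapped the air group except silica and smoke plus sand, whose rats all lay above all air rats. The differences from air were 0.45 ± 0.14 for silica (adjusted p = 0.541), 0.40 ± 0.14 for smoke plus sand (adjusted p = 0.243), 0.29 ± 0.14 for smoke plus silica (adjusted p = 0.298), 0.23 ± 0.14 for sand and 0.22 ± 0.14 for smoke. The values lay near the top of a scale that reached 15.04, and air rat 104 lay below all other rats.

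Of the 5 Cxcl3 probe sets, 3 (1370633_at, 1370634_x_at and 1388032_a_at) rose where both smoke and dust were breathed. With smoke plus silica they rose by 0.78, 0.68 and 0.47 over air (adjusted p = 0.0143, 0.028 and 0.0222 over 31042 probe sets), and with smoke plus sand by 0.88, 0.79 and 0.62 (adjusted p = 0.0106, 0.0172 and 0.0063). Smoke plus sand against sand alone gave 0.66, 0.65 and 0.52 (adjusted p = 0.0427, 0.0393 and 0.0152). With smoke alone they were 0.62, 0.46 and 0.31 higher than air and did not pass (adjusted p = 0.15, 0.354 and 0.353). Silica alone gave 0.36, 0.33 and 0.31 and sand alone 0.23, 0.15 and 0.10, and none passed. Smoke plus silica against silica alone gave 0.42, 0.34 and 0.16, which did not pass either. Averaged over the dust conditions, smoke raised them by 0.57, 0.48 and 0.33 (adjusted p = 0.00231, 0.00563 and 0.00481).

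For 1370633_at the values were 7.82, 8.39, 8.46 and 8.05 in smoke plus silica rats, 8.45, 8.32, 7.81 and 8.54 in smoke plus sand rats, and 7.56, 7.36, 7.24 and 7.44 in air rats. Neither combined group overlapped air. Over the 24 arrays these 3 correlated with each other at r = 0.90 to 0.95 and with 1388033_at at 0.41 to 0.58, while the remaining one, 1393182_at, correlated at 0.21 to 0.35 with the other 4 and passed in none of the comparisons. Each of these r values pools the 6 groups and is given as a description. The probe sets were looked at after the values of the first had been seen, and which of them reads the Cxcl3 transcript best was not tested.

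**Figure D2:**
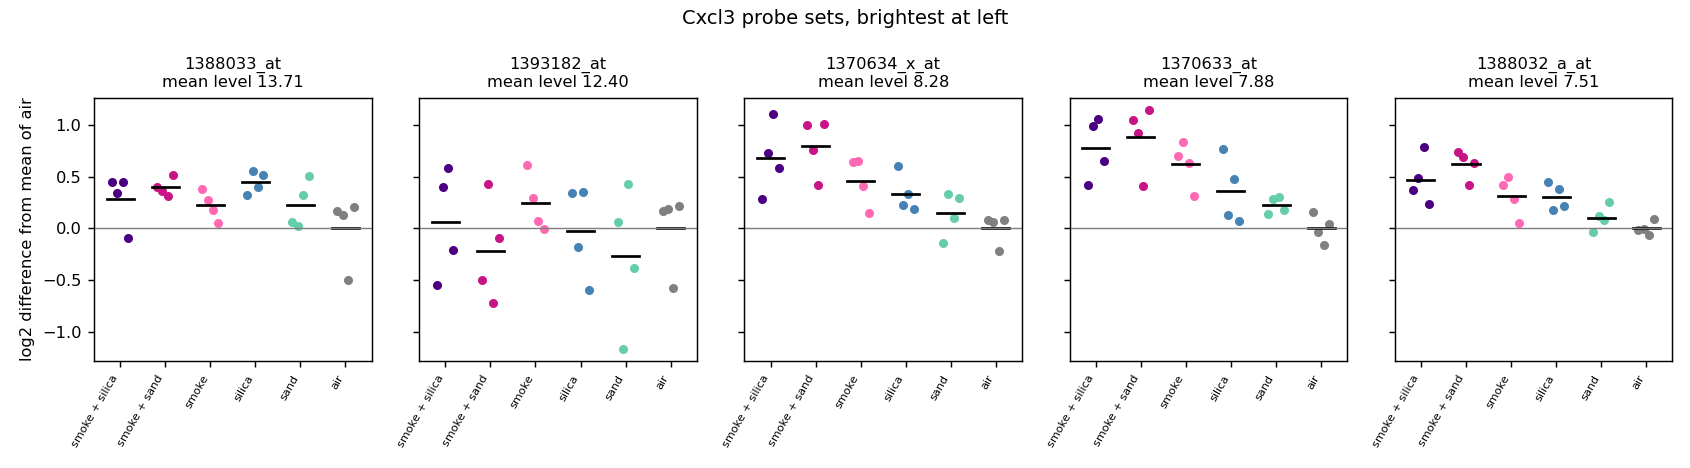
Log2 difference of each rat from the mean of the 4 air rats (vertical axis) for the 5 Cxcl3 probe sets, brightest at the left, by group (horizontal axes), with a point for each rat and a black line for the group mean. In the 3 panels at the right the combined exposures lie 0.47 to 0.88 above air and passed the test. In the leftmost panel they lie 0.29 and 0.40 above air and did not pass, and in the panel beside it all exposed groups overlap air.

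Of the receptors, Cxcr1 rose in every smoke group. It rose to 2.55-fold of the air level with smoke alone (1.35 ± 0.22, adjusted p = 0.00387), to 3.10-fold with smoke plus sand (1.63 ± 0.22, adjusted p = 0.00122) and to 2.75-fold with smoke plus silica (1.46 ± 0.22, adjusted p = 6.08e-04). Silica alone gave 0.76 ± 0.22 and sand alone 0.68 ± 0.22, which did not pass (adjusted p = 0.42 and 0.328).

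Cxcr1 values were 8.74, 8.72, 8.50 and 9.26 in smoke plus silica rats, 8.71, 9.15, 8.96 and 9.09 in smoke plus sand rats, and 9.33, 8.39, 8.33 and 8.72 in smoke rats. They were 8.69, 7.79, 7.99 and 7.93 in silica rats, 7.70, 7.87, 8.51 and 8.001 in sand rats, and 7.19, 7.50, 7.57 and 7.11 in air rats. No exposed rat lay below any air rat, although the single dusts did not pass the test. Means were 8.98 ± 0.20 in smoke plus sand, 8.80 ± 0.32 in smoke plus silica, 8.69 ± 0.46 in smoke, 8.10 ± 0.40 in silica, 8.02 ± 0.35 in sand and 7.34 ± 0.23 in air rats (SD, n = 4 each). The 3 smoke groups overlapped each other, as did silica and sand.

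Cxcr2 passed in none of the 14 comparisons. Its mean over all arrays was low, 5.77, at percentile 14.7 of the genes by level, where the median of all genes was 8.30. RMA compresses low signals, so the lack of a call does not show that Cxcr2 was unchanged. Its values were 5.57, 5.84, 5.70 and 5.67 in smoke plus silica rats, 5.53, 5.62, 5.84 and 6.13 in smoke plus sand rats, and 7.79, 5.57, 5.94 and 5.65 in smoke rats. They were 5.58, 5.67, 5.52 and 5.51 in silica rats, 5.33, 5.53, 5.42 and 6.02 in sand rats, and 5.69, 5.75, 5.58 and 5.94 in air rats. Apart from smoke rat 201, all groups overlapped. The difference of smoke alone from air was 0.50 ± 0.31 (adjusted p = 0.664), and without rat 201 it was -0.02 (adjusted p = 0.998).

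The 2 receptors differed in the genes whose pattern was most like theirs. The 3 genes with the highest correlation to Cxcr1 over the 24 arrays were Gpnmb (r = 0.94), Ctsd (0.93) and Cd68 (0.93), a membrane glycoprotein, a lysosomal protease and a lysosomal protein that are abundant in macrophages. With group means subtracted the r values were 0.85, 0.77 and 0.83. For Cxcr2 they were LOC102555751 (0.95), Mmp8, the neutrophil collagenase (0.94), and Csf3r, the receptor of the granulocyte growth factor (0.92), and 0.96, 0.94 and 0.92 with group means subtracted. All these r values share the arrays, and those of Cxcr2 share rat 201, where Mmp8 stood at 8.52 and Csf3r at 9.85, against 5.41 to 5.96 and 6.90 to 8.04 in the other smoke rats.

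Both cell types' marker lists were followed beside the receptors. Of 14 alveolar macrophage markers 11 were measured, and their mean ran from 10.98 to 11.55 in smoke plus silica rats, 10.53 to 11.02 in smoke plus sand rats, 10.72 to 11.17 in smoke rats, 10.33 to 10.72 in silica rats, 10.18 to 10.59 in sand rats and 9.85 to 10.28 in air rats. Against air, 8 of the 11 rose with smoke plus silica, 4 with smoke plus sand, 5 with smoke, and 0 with silica or sand alone, where 5 and 5 had an unadjusted p under 0.05 in limma. Of all genes 2.19%, 0.64%, 0.76%, 0.141% and 0.0141% rose in that order of groups. With silica alone 711 of the 14217 genes had an unadjusted p under 0.05, and with sand alone 1456 did. Cd68 rose by 1.49 with smoke plus silica, 1.14 with smoke plus sand and 1.26 with smoke, and Ctsd by 0.90, 0.83 and 0.91 in the same order. The part of this in the Cxcl1, Cxcl2 and Cxcr1 results was not tested.

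Of 18 neutrophil markers 9 were measured, and their mean ran from 7.48 to 8.17 in smoke plus silica rats, 7.50 to 8.01 in smoke plus sand rats, 7.77 to 9.49 in smoke rats, 7.20 to 7.41 in silica rats, 7.32 to 7.86 in sand rats and 7.42 to 7.89 in air rats. In limma 0 of the 9 rose or fell against air in any group, and 1, 1, 5, 0 and 0 had an unadjusted p under 0.05 in that order of groups. Of all 14217 genes 3.77%, 0.978%, 0.893%, 0.141% and 0.0281% rose or fell, and 2626, 1552, 1415, 711 and 1456 had an unadjusted p under 0.05. S100a9, a calcium-binding protein abundant in neutrophils and also made by other myeloid cells, rose by 1.35 ± 0.23 with smoke averaged over the 3 dust conditions (adjusted p = 0.00154). It was the only 1 of the 9 markers to pass in that comparison, where 2.69% of all genes rose. The median of the 9 there was 0.38. Silica rats, with Cxcl1 3.33-fold above air, had neutrophil list means of at most 7.41, barely below the lowest air rat at 7.42. The difference in list means was not tested.

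Smoke rat 201 lay above all 3 other smoke rats in 8 of the 9 neutrophil markers. It also lay above them in 8 of 11 macrophage markers (list mean 11.17, against 10.72 to 10.85), in 9 of 9 genes of ligand degradation and mRNA decay (10.01, against 9.08 to 9.17), in 12 of 15 genes of CXC receptor signalling and in 11 of 15 inducers of these ligands, so it stood apart in more than neutrophil genes. Its S100a9 was 13.31, against 11.42 to 11.62 in the other smoke rats, and its Il1b, an inflammatory cytokine of myeloid cells, was 11.16. Its Cxcl1 of 10.73 and Cxcl2 of 7.42 were close to those of smoke rat 203, whose neutrophil marker mean was 7.77.

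**Figure D3:**
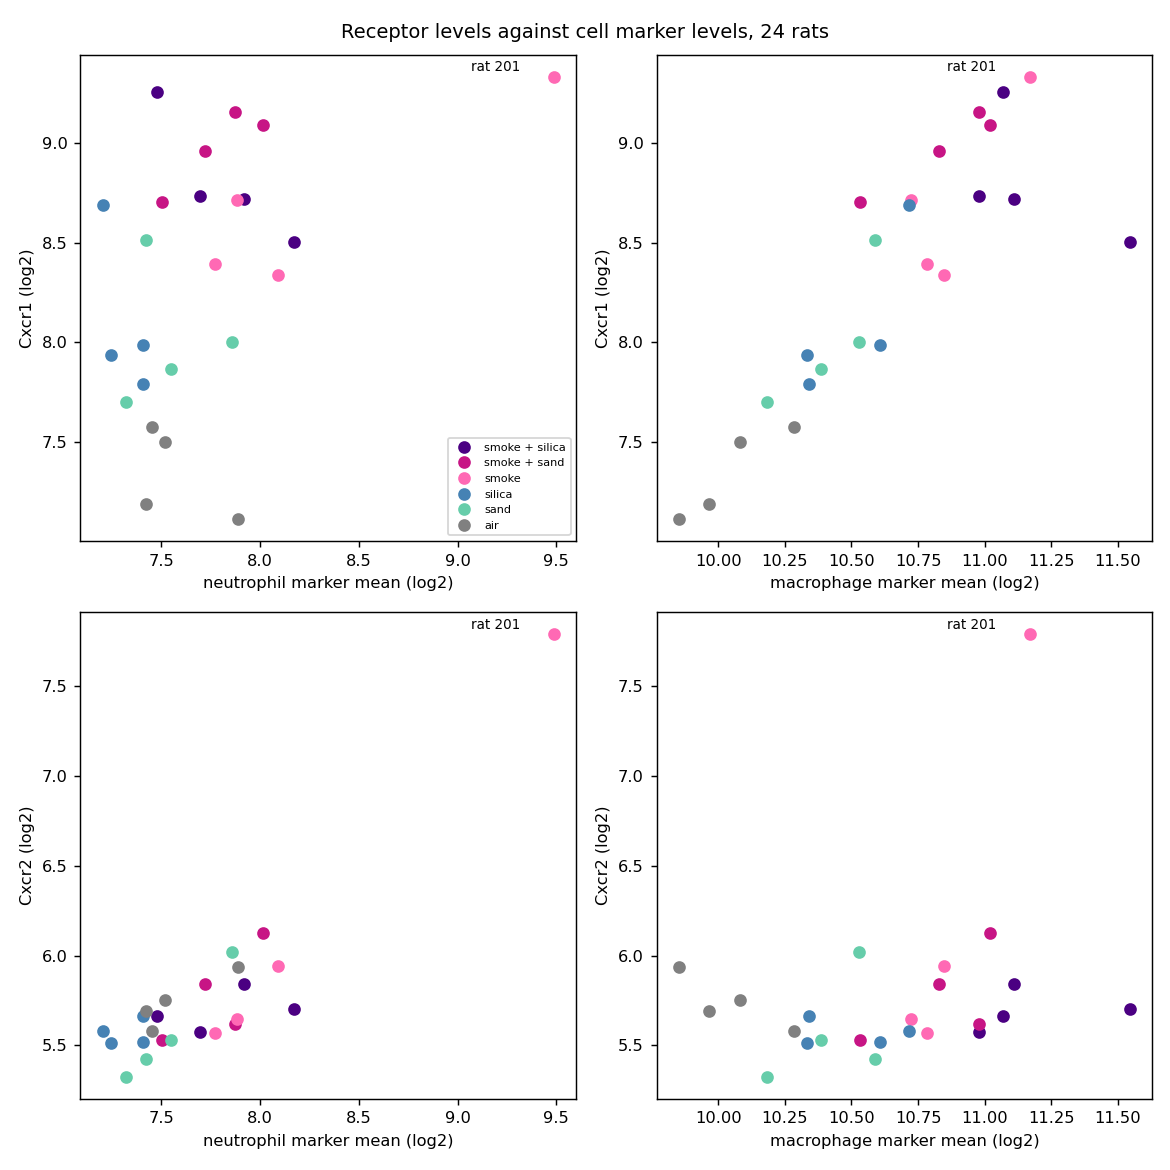
Log2 value of Cxcr1 (upper panels) and Cxcr2 (lower panels) against the mean log2 level of 9 neutrophil markers (left) and 11 macrophage markers (right), with a point for each of the 24 rats coloured by group. Cxcr1 mostly climbs with the macrophage marker mean across groups. Smoke plus silica rat 604 is farthest right at 11.55 but has a Cxcr1 of 8.50, the lowest of its group. Cxcr2 climbs with the neutrophil marker mean, where rat 201 is highest and farthest right.

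Within groups, the relations among rats were tested by permuting values inside each group (100000 permutations, two-sided, n = 24, group means subtracted). Of the 10 pairs of members, 2 passed after Benjamini-Hochberg adjustment over the 10 by both coefficients. Cxcl1 and Cxcl2 gave r = 0.67 and rho = 0.71 (permutation p = 0.00545 and 5.50e-04, adjusted 0.0272 and 0.0055), and r was 0.58 without rats 405 and 501, the 2 farthest on Cxcl1. Their r was 0.87 in the 12 smoke-exposed rats and 0.41 in the 12 others.

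Cxcl2 and Cxcl3 gave r = 0.56 and rho = 0.56 (permutation p = 7.40e-04 and 0.00427, adjusted 0.0074 and 0.0214), with r = 0.52 without rats 305 and 405 and 0.64 and 0.52 in the smoke-exposed and other rats. Cxcr1 and Cxcr2 gave r = 0.44 (permutation p = 0.143, adjusted 0.238) and rho = 0.30 (permutation p = 0.229), and r was -0.06 without rat 201.

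A further 10 relations, of each member with each marker mean, were chosen after these values were seen and adjusted among themselves. The neutrophil list holds Mmp8 and Csf3r, and the macrophage list holds Gpnmb, Ctsd and Cd68. These genes were given above as most like Cxcr2 and Cxcr1 on the same arrays, so the p-values for the receptors are not independent of that. Cxcr2 with the neutrophil marker mean gave r = 0.93 and rho = 0.80 (permutation p = 2.20e-04 and 5.10e-04, adjusted 0.0022 and 0.0051), and r was 0.78 without rats 201 and 203 and 0.73 without rat 201 alone. Cxcr1 with the macrophage marker mean gave r = 0.54 and rho = 0.56 (permutation p = 0.0152 and 0.00985, adjusted 0.0506 and 0.0490), and r was 0.66 without rats 201 and 604 and 0.44 without rat 201 alone. Within the 12 smoke-exposed rats that r was 0.30, and within the other 12 it was 0.84. Cxcr1 with the neutrophil marker mean gave r = 0.29 and rho = 0.15 (permutation p = 0.387 and 0.548), and r was -0.31 without rat 201. The ligands Cxcl2 and Cxcl3 with the neutrophil marker mean gave r = 0.48 and 0.45 (permutation p = 0.0228 and 0.0134, adjusted 0.0569 and 0.0506) and rho = 0.54 and 0.50 (adjusted permutation p = 0.0490 for both), and their r was 0.49 and 0.52 without rat 201. Cxcr2 with the macrophage marker mean gave r = 0.44 (permutation p = 0.0441, adjusted 0.0882) and 0.23 without rat 201. The remaining 4 relations had adjusted permutation p of 0.211 or more by either coefficient.

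The design crosses smoke with dust, so it asks what smoke and dust did together. Adding dust to smoke changed none of the 5 members. Cxcl1 in smoke plus silica rats was 0.05 ± 0.26 above smoke alone (95% interval -0.50 to 0.59), and in smoke plus sand rats -0.16 ± 0.26 (-0.71 to 0.39). Cxcr1 was 0.11 ± 0.22 higher with silica (-0.36 to 0.57) and 0.28 ± 0.22 with sand (-0.18 to 0.75), and Cxcl2 was -0.05 ± 0.26 (-0.58 to 0.49) and 0.41 ± 0.26 (-0.13 to 0.94). These intervals leave room for differences of up to about 1 on the log2 scale and do not show that the groups were alike. In the limma fit 0 of 5 members passed in either comparison, and 0 had an unadjusted p under 0.05; 0.0141% of all genes passed with silica and 0.0141% with sand.

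Adding smoke to dust raised Cxcl1 and Cxcr1 in rats that breathed sand. Cxcl1 rose by 1.31 ± 0.26 (adjusted p = 0.019) and Cxcr1 by 0.96 ± 0.22 (adjusted p = 0.0386) over sand alone, and Cxcl2 was 0.87 ± 0.26 higher (adjusted p = 0.0843). Thus 2 of 5 members rose, where 0.366% of all genes did. Both calls were lost without rats 302, 104 and 604 (1.14, adjusted p = 0.0592, and 0.91, adjusted p = 0.0821), and over 11 other settings the adjusted p ran from 0.016 to 0.397 for Cxcl1 and from 0.0282 to 0.298 for Cxcr1. The Cxcl1 call was lost without any one of rats 302, 402 and 406 (adjusted p up to 0.0817), and the Cxcr1 call without any one of rats 102, 301, 302, 402, 404, 405 and 406 (up to 0.109). Cxcl2 passed without rat 305 or 405 (adjusted p down to 0.0149). In rats that breathed silica, smoke gave differences of 0.43 ± 0.26 for Cxcl1, 0.70 ± 0.22 for Cxcr1 and 0.27 ± 0.26 for Cxcl2, and 0 of 5 passed, where 0.00703% of all genes did; 1 of the 5, Cxcr1, had an unadjusted p under 0.05.

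**Figure D4:**
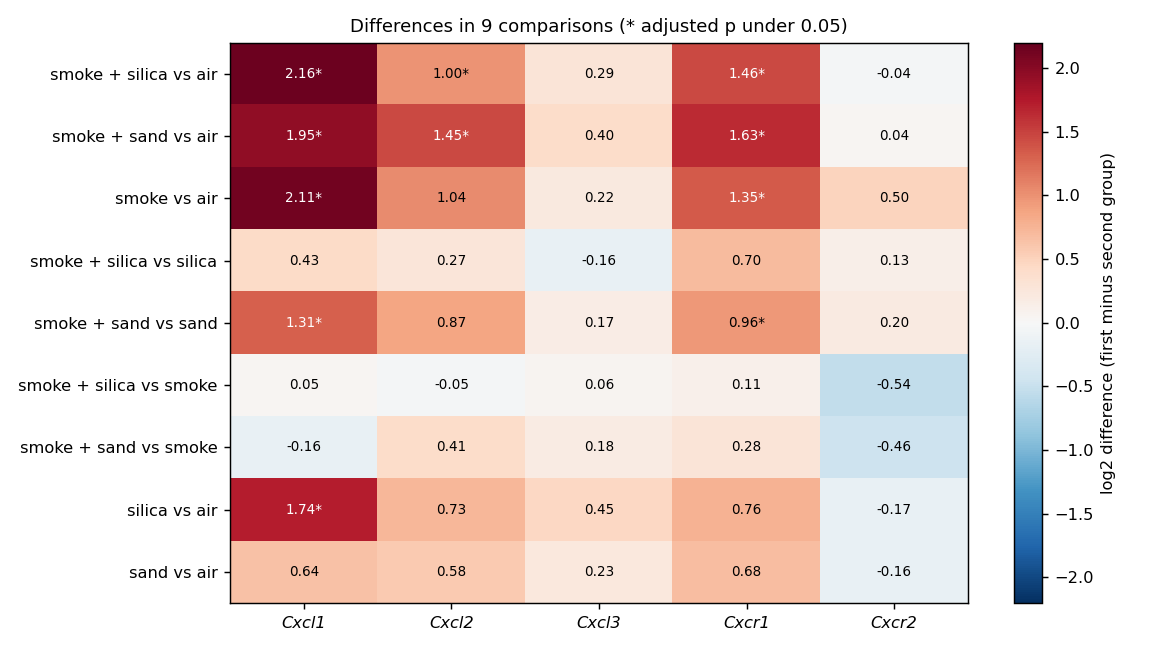
Log2 difference (first group minus second, colour scale and printed value) of the 5 genes (horizontal axis) in 9 comparisons (vertical axis), with a star where the adjusted p was under 0.05. Cxcl1 and Cxcr1 are starred in all 3 smoke comparisons with air, and none of the 5 is starred where dust was added to smoke.

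Set against the sum of the single exposures, Cxcl1 was lower in both combined groups, with sand by an amount close to its error. On the linear scale smoke plus silica rats averaged 1621 units, and the air level plus the separate rises with smoke and with silica gave 2395, a departure of -773 ± 298 (SE, n = 4 in each of 4 groups). The combined rise was 62.1% of the sum of the single ones. With smoke plus sand the mean was 1451 against an expected 1758, a departure of -308 ± 289 and 78.1% of the sum.

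On the log2 scale, where the sum of single differences is a multiplicative expectation, Cxcl1 with smoke plus silica was expected at 12.31 and the highest of the 4 rats reached 11.09. The smoke by silica interaction was -1.69 ± 0.37 (95% interval -2.46 to -0.91). Its unadjusted p of 1.79e-04 ranked 2 among the 14217 genes and did not pass adjustment (adjusted p = 0.9997). The smoke by sand interaction was -0.81 ± 0.37 (-1.58 to -0.03, unadjusted p = 0.0421, adjusted p = 0.559), and all 4 smoke plus sand rats lay below the expected 11.22.

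Cxcl2 and Cxcr1 differed in how near they came to the sum. With smoke plus sand, the linear mean of Cxcl2 was 181 against 174 expected (107% of the summed rise, departure 7.78 ± 40.5) and that of Cxcr1 was 507 against 533 (93.1%, -25.6 ± 89.6). With smoke plus silica Cxcl2 reached 130 against 178 (57.3%, -48.8 ± 25.0) and Cxcr1 455 against 550 (75.4%, -95.1 ± 103). For Cxcl2 and Cxcr1 with smoke plus silica, and Cxcr1 with smoke plus sand, all 4 rats lay below the log2 expectation, and for Cxcl2 with smoke plus sand 2 of 4 did.

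The log2 interactions with silica were -0.78 ± 0.37 for Cxcl2 (-1.54 to -0.02), -0.65 ± 0.32 for Cxcr1 (-1.31 to 0.01), -0.38 ± 0.20 for Cxcl3 and -0.37 ± 0.43 for Cxcr2. With sand they were -0.17 ± 0.37 for Cxcl2, -0.39 ± 0.32 for Cxcr1, -0.05 ± 0.20 for Cxcl3 and -0.29 ± 0.43 for Cxcr2. The Cxcr2 values turned to 0.15 and 0.22 without rat 201. All 10 estimates were below 0, with Cxcl3 read by its brightest probe set, and they share the air and smoke rats. The 3 Cxcl3 probe sets that rose (1370633_at, 1370634_x_at and 1388032_a_at) had interactions with sand of 0.04, 0.19 and 0.21, above 0, and with silica of -0.20, -0.12 and -0.15, and none of the 6 passed. In limma 0 of 5 members passed in the smoke by silica interaction (0% of all genes) and 0 of 5 in the smoke by sand interaction (0.00703%). With silica 2 members and 318 of the 14217 genes had an unadjusted p under 0.05 in limma. With sand 1 member and 1257 genes did, and 1007 of these genes were below 0. The median interaction was -0.65 for the members with silica, beside -0.004 for all genes, and -0.29 with sand, beside -0.04.

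**Figure D5:**
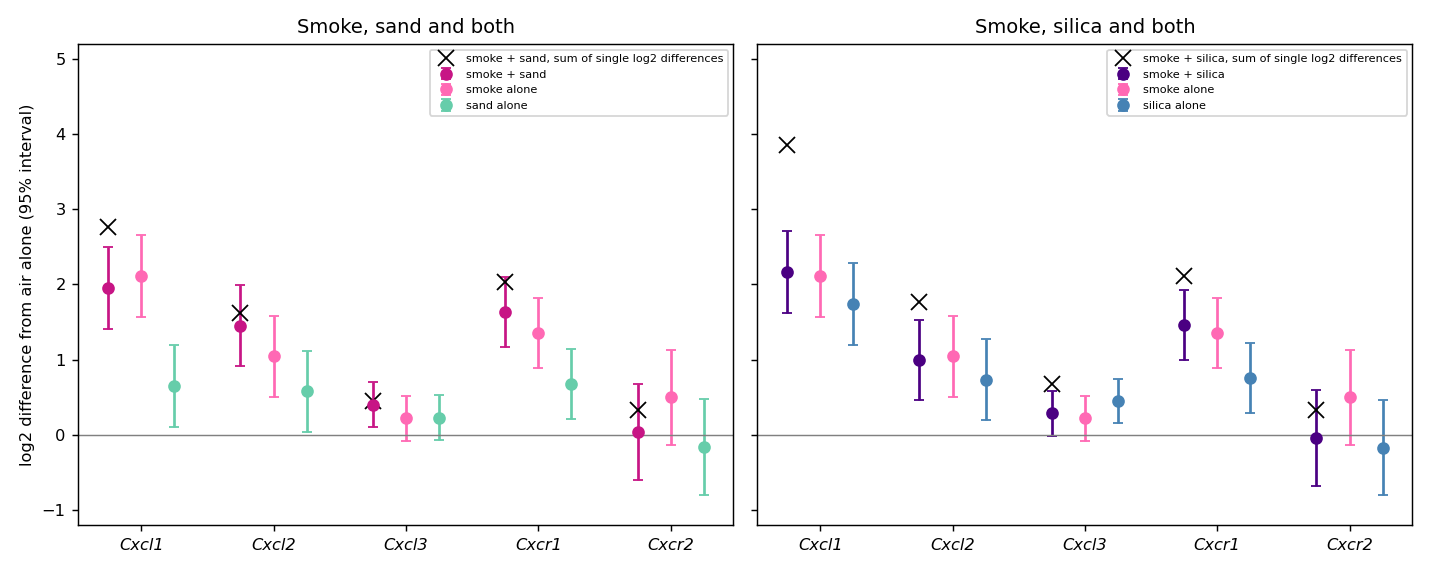
Log2 difference from the air group (vertical axis, points with 95% intervals) of the 5 genes (horizontal axes) for the combined exposure, smoke alone and dust alone, with sand at the left and silica at the right; a cross marks the sum of the 2 single differences. For Cxcl1 with silica the cross is far above the combined point of 2.16, which lies beside smoke alone at 2.11.

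In the comparisons with air a larger share of the members than of all genes rose, except with sand alone. With smoke alone 2 of 5 rose, where 0.76% of all genes did; with smoke plus sand 3 of 5, where 0.64% did; with smoke plus silica 3 of 5, where 2.19% did; and with silica alone 1 of 5, where 0.141% did. With sand alone 0 of 5 passed, where 0.0281% of all genes did, and 3 of the 5 had an unadjusted p under 0.05, as did 1456 of the 14217 genes.

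Averaged over the 3 dust conditions, smoke raised Cxcl1 by 1.28 ± 0.15 (adjusted p = 4.66e-05), Cxcr1 by 1.00 ± 0.13 (adjusted p = 9.28e-05) and Cxcl2 by 0.73 ± 0.15 (adjusted p = 0.00534), 3 of 5 where 2.69% of all genes rose. The Cxcl2 call was lost on the 19 arrays without the covariate (0.73, adjusted p = 0.0557). Averaged over smoke and air, silica raised Cxcl1 by 0.89 ± 0.19 (adjusted p = 0.0329), 1 of 5 where 0.281% rose. That call was lost without any one of 10 rats (102, 104, 105, 203, 204, 205, 501, 503, 603 and 604; adjusted p up to 0.0907). Sand averaged the same way changed 0 of 5, where 0% of all genes passed; 2 members and 742 genes had an unadjusted p under 0.05. The median difference of the members with smoke averaged was 0.73, beside -0.02 for all genes.

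The genes most like the ligands over the 24 arrays were macrophage, NF-κB and other genes. Cxcl1 was closest to Gpnmb (r = 0.88), Ccl3, a chemokine for monocytes (0.87), and Nfkbiz, a nuclear partner of NF-κB (0.87), and with group means subtracted these were 0.57, 0.59 and 0.62. Cxcl2 was closest to Sod2, the mitochondrial superoxide dismutase (0.82), Cd63, a late endosome protein (0.82), and Cxcl1 (0.80), and 0.63, 0.61 and 0.67 with group means subtracted. Cxcl3 was closest to Cwf19l2 (0.77), Dram1 (0.74) and Atp1b1, a subunit of the sodium pump (0.72), and 0.76, 0.57 and 0.76 with group means subtracted. The first r of each gene pools 6 groups, and all are descriptions.

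Among the other ligands of the same receptors, 2 of 3 were measured. Cxcl6, a further neutrophil attractant, rose by 0.67 ± 0.13 with smoke plus sand (adjusted p = 0.0104) and by 0.59 ± 0.13 with smoke plus silica (adjusted p = 0.0107). Its values were 6.42, 6.74, 6.77 and 6.34 in smoke plus silica rats, 6.81, 6.65, 6.47 and 6.68 in smoke plus sand rats and 5.85, 5.84, 6.03 and 6.20 in air rats, without overlap between either combined group and air. The other CXC ligands, which mostly serve lymphocytes, had 8 of 9 measured, and only Cxcl14, an epithelial chemokine, fell with smoke averaged (-1.02 ± 0.22, adjusted p = 0.00838). Of 7 measured other CXC and atypical receptors (10 listed), only Cxcr3, a receptor of activated T cells, fell with smoke plus silica (-0.60 ± 0.16, adjusted p = 0.039) and with smoke averaged (-0.37 ± 0.09, adjusted p = 0.0188). Of 10 T and NK cell markers, all measured, 4 fell with smoke plus silica, where 1.58% of all genes did. With smoke averaged 5 fell, where 3.7% of all genes did. Beside -0.02 for all genes in both comparisons, the medians of the 10 markers were -0.64 and -0.52. Their mean level ran from 7.18 to 8.75 in smoke plus silica rats, 7.79 to 8.24 in smoke plus sand rats, 7.74 to 8.39 in smoke rats, 8.30 to 8.52 in silica rats, 8.16 to 8.99 in sand rats and 8.61 to 8.87 in air rats. The part of this in the Cxcr3 result was not tested.

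Of the cytokines and receptors that induce these ligands, 15 of 16 were measured. Csf2, a growth factor of granulocytes and macrophages, rose by 0.62 ± 0.12 with smoke plus silica, 0.56 with smoke plus sand, 0.62 with smoke and 0.66 with silica (adjusted p = 0.00336, 0.0209, 0.00843 and 0.0148). Its group means were 8.13, 8.06, 8.13 and 8.17 in those groups, 8.02 in sand and 7.51 in air rats, so every exposed group sat at about the same level. Traf3ip2, an adaptor of interleukin-17 signalling, fell with smoke plus silica (-0.35 ± 0.09, adjusted p = 0.032). Tnf, Il1b and Csf3, 3 classical inducers or partners, passed in none of the 14 comparisons. Csf3 was low, between 4.95 and 5.33 in all rats, so the lack of a call does not show that it was unchanged.

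NF-κB genes went both ways, with 18 of 20 measured. Sod2 rose by 1.04 with smoke plus silica, 0.91 with smoke plus sand and 0.91 with smoke (adjusted p = 0.00119, 0.0108 and 0.00872), and Nfkbiz by 0.96 with smoke plus silica and 0.89 with smoke (adjusted p = 0.0109 and 0.0364). Nfkbia, the inhibitor that holds NF-κB in the cytoplasm, fell by 0.54 with smoke plus silica (adjusted p = 0.0377). Its values were 11.53, 11.50, 11.49 and 11.64 in those rats, all below the 12.18, 11.99, 12.02 and 12.11 of air rats. Icam1, an adhesion molecule that neutrophils bind on endothelium, fell by 0.33 with smoke plus sand (adjusted p = 0.0114) and by 0.22 with smoke averaged (adjusted p = 0.00105). The list's counts were 2 up and 1 down with smoke plus silica, 1 and 1 with smoke plus sand, and 2 and 0 with smoke, and its medians of -0.01, 0.06 and 0.05 lay beside -0.02, -0.01 and -0.01 for all genes. Of all genes 2.19% rose and 1.58% fell with smoke plus silica, 0.64% and 0.338% with smoke plus sand, and 0.76% and 0.134% with smoke.

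All 9 genes for ligand breakdown and mRNA decay were measured. Zfp36, which destabilizes cytokine mRNAs, fell by 0.59 with smoke plus silica (adjusted p = 0.0261), and Zc3h12a, an RNase that cuts such mRNAs, rose by 0.34 with smoke averaged (adjusted p = 0.0291). Mmp12, a macrophage elastase that is also on the macrophage list, rose by 2.46 with smoke plus silica (adjusted p = 0.00565). In receptor signalling, with 15 of 21 measured, only Rgs1, which shortens G protein signalling, passed, and it rose by 1.58 with smoke plus silica (adjusted p = 0.0201) and by 1.05 with smoke averaged (adjusted p = 0.00511).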

How the data were processed

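Lung RNA of 24 rats was measured on 1 Affymetrix rat genome array each. The deposited log2 values were made by the authors with RMA, per the submitters' processing notes, with no version named there. RMA removes shifts that most genes share and compresses low and high signals, and precision is limited by how many arrays a group has. Of 31042 probe sets other than controls, 20826 carried 1 gene symbol in the platform annotation, 436 several and 9780 none; a gene took its brightest probe set with 1 symbol, giving 14217 genes.

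A mean for each of the 6 groups was estimated from all 24 arrays together in limma 3.58.1 (R 4.3.3; lmFit, eBayes), with 18 residual degrees of freedom and p-values adjusted over all genes within each of 14 comparisons; it was tested on simulated data. Linear-scale means were taken over 2 to the power of each value. Correlations and figures used Python 3.11.15, scipy 1.17.1 and matplotlib 3.10.9. Groups and rat numbers came from the labels, which named no batch. The members, gene lists and tests were chosen with earlier results of these data known. Named genes were the members, up to 4 called genes of each list per comparison by moderated t (up to 2 given as values where none passed), 3 most alike per member, and 8 genes such as Cxcl6 and S100a9 listed by name.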

Additional observations from a re-analysis of the deposited data

Results flagged for a closer look

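Of the 30 sets of 4 rats (5 genes in 6 groups), 4 held a rat whose gap to its nearest companion took more of the group's range than Dixon's 95% critical value, and chance marks about 1 in 20 such sets. Cxcl1 in silica rat 501 was 10.79, against 9.98 to 10.04 in the other 3. Cxcl2 in smoke plus sand rat 405 was 6.70, against 7.61 to 7.76 in the others. Cxcl3 in air rat 104 was 12.95, against 13.57 to 13.65 in the others, and this is 1 of the rats with high cardiac muscle markers. Cxcr2 in smoke rat 201 was 7.79, against 5.57 to 5.94 in the others, and this rat also had high neutrophil markers, macrophage markers and decay genes.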

How the results depend on the processing

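Of 742 planned recomputations other than leaving out 1 rat, 717 stayed on the same side of the threshold. With 1 rat left out, 1648 of 1680 did. No called direction reversed. A change of sign between values that did not pass was not counted, such as that of Cxcr2 with smoke alone (-0.02 without rat 201). The number of members called in silica averaged, silica against air and smoke plus sand against sand was 0 on the 19 arrays of known RNA integrity, with or without integrity as a covariate. In smoke plus sand against air it was 1 on those 19 arrays without the covariate. In smoke plus sand against sand it was also 0 with only the arrays compared and without rats 302, 104 and 604, and 1 with array weights. With array weights 1 member, Cxcr1, was called in sand against air and in sand averaged. With 1 rat left out the number called ranged from 0 to 1 in silica averaged, from 2 to 3 in smoke plus silica against air and smoke against air, and from 0 to 3 in smoke plus sand against sand, and it did not move in the other 10 comparisons. Cxcl2 with smoke alone passed with array weights and with only the arrays compared (adjusted p = 0.0142 and 0.0441), and with smoke plus sand it was lost on the 19 arrays (0.0812 with the covariate and 0.18 without). The mean of all Cxcl3 probe sets rose by 0.32 with smoke averaged (adjusted p = 0.028). Rescaling moved the median of all genes by at most 0.05. The filter at the median level left Cxcl2 and Cxcr2 without a value. The causes were not tested, except that 19 arrays are fewer than 24. No paired analysis was possible because no rat number is shared between groups.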
